A study of Mus musculus with 15 samples.

Results

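Keratins are the intermediate filament proteins of epithelia, and 7 keratin genes that were measured in the kidney, Krt7, Krt8, Krt18, Krt19, Krt15, Krt23 and Krt80, are described here. They were chosen by symbol from the first column of the 3 deposited tables, and all 7 were found in each table among 23393 gene symbols. A keratin filament is built from pairs of 1 type I and 1 type II chain, and an unpaired chain is unstable in the cell. Krt8 with Krt18 is the founding pair of simple, single-layered epithelia, Krt7 and Krt19 are added in ducts, and in the kidney these 4 are known from the collecting duct, the thin limbs and the lining of the renal pelvis, while proximal tubules carry little of them until they are injured. The label of simple epithelial keratins fits these 4 by their textbook roles. Krt15 is known from the basal layer of stratified epithelia, where it partners Krt5, Krt23 is a type I keratin found in injured liver of mice, and Krt80 is a type II keratin known mostly from stratified and differentiating epithelia.

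The study measured polyadenylated RNA of whole kidneys from C57BL/6 mice in which both Esrrg alleles were floxed (ERRg fl/fl). Kidneys that also carried the Sim1-Cre transgene are called knockout (KO), and those of littermates without Cre, whose alleles were floxed too, are called control. The labels give 3 KO and 3 control males at 3 months, 2 KO and 2 control females at 3 weeks, and 3 KO and 2 control males at 3 weeks, 15 libraries in all. Esrrg encodes ERRγ, an orphan nuclear receptor of mitochondrial energy genes, and the sources used here do not name the cells in which Sim1-Cre was active. The source names of the 3-month KO kidneys call them female and their titles call them male. In that table Xist had a mean of 11.9 normalized counts and the Y-linked Ddx3y 1477, where the table of females had 23848 and 0.831.

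Each of the 3 tables used here holds 1 comparison of the genotypes, with a mean of normalized counts over its libraries, a log2 fold change and its standard error (SE), and p-values from DESeq2, and its columns are not split by library. The recurring steps of the lowest means give 5, 4 and 4 libraries for 3-month males, 3-week females and 3-week males, 2 of them in each table of the genotype on top of the ratio by the signs of genes counted in 1 library, and the deposited means sum to 18805533, 33861809 and 47478811 normalized counts. Genes counted in 1 library had small fold changes although the other genotype had no count. Krt13 in 3-week females was at 0.04 ± 0.10 on a mean of 0.183. The deposited fold changes thus appear drawn toward 0 (shrunken). The largest SE of any gene was 1.10 in 3-month males, 0.42 in 3-week females and 0.44 in 3-week males. The tables do not say which genotype is on top of the ratio. It is read here as KO over control, because ERRγ is known to drive mitochondrial and tubular transport genes, and of 9 markers that define the kidney, mostly of tubules, 2 of 3, 3 of 7 and 7 of 8 tested genes were lower in this reading and none higher. Esrrg itself goes against that reading at 3 weeks, with log2 fold changes of 1.04 ± 0.17 in females and 0.82 ± 0.20 in males (SE; adjusted p = 1.70e-08 and 0.000613, DESeq2), and had -0.87 ± 0.57 without a p-value at 3 months in the authors' deposited tables. Its total can hold reads outside the deleted part, so it checks neither the deletion nor the labels, and with the ratio turned every higher and lower below changes places.

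The 7 genes lie in the 2 keratin clusters of the mouse genome (GENCODE M21, GRCm38, the same build as mm10). Krt80 (chromosome 15, 101347444 to 101370162, minus strand) and Krt7 (101411043 to 101430313, plus strand) are 40.9 kb apart. Krt8 (101996698 to 102004482, minus strand) and Krt18 (102028180 to 102032027, plus strand) also lie on chromosome 15, head to head across 23.7 kb, although Krt18 is a type I keratin. The other type I genes are on chromosome 11, Krt23 at 99477974 to 99493137, Krt15 at 100131758 to 100135928 and Krt19 at 100140810 to 100148665, all on the minus strand, with 4.88 kb between Krt15 and Krt19. The annotation holds 1 processed pseudogene of Krt8, on chromosome 7, whose reads could have been shared with Krt8 depending on the counting. Windows from 250 bases before to 50 after the start site were held by RefSeq (GRCm38.p6) for 4 of the 7. Those of the obligate pair and of Krt7, a type II keratin of ducts, are shown because both chains of the pair were called higher in 3-week males and Krt7 was not. The RefSeq starts of all 4 lie inside the GENCODE genes, that of Krt7 the furthest. Capitals mark TATAAA or GGGCGG on either strand.

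Krt8, chr15:102004293-102004592, minus strand: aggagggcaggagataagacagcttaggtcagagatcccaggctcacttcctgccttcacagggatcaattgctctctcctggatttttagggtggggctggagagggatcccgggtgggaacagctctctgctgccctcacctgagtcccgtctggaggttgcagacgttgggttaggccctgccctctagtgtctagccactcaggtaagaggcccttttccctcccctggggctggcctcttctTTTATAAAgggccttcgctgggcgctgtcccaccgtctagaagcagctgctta

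Krt18, chr15:102027966-102028265, plus strand: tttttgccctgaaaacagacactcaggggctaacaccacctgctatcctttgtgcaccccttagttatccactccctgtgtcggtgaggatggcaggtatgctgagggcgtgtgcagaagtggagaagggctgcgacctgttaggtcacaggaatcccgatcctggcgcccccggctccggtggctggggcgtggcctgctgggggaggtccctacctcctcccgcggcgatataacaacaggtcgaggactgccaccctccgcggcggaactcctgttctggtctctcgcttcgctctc

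Krt7, chr15:101412153-101412452, plus strand: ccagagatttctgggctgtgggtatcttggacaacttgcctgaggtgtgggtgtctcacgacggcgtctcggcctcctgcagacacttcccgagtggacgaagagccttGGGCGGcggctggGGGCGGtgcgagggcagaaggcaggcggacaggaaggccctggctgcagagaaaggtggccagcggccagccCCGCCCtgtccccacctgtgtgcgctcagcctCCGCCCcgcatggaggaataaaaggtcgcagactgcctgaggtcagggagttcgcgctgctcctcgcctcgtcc

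Krt8 held TATAAA on both strands in 1 overlapping run at its RefSeq start site, and Krt7 held 4 copies of GGGCGG, the core of a GC box, none of which overlapped. Krt18 held neither. The Krt23 window, chr11:99493071-99493370 on the minus strand, held neither as well. Of 32851 promoter windows of this length, 13.6% held TATAAA and 35.7% held GGGCGG on either strand. TGANTCA, the AP-1 site, and AAGGTCA, the half-site bound by ERR receptors, were in none of these 4 windows, and in 7.81% and 4.72% of all windows.

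In KO kidneys of 3-month males, all 7 keratins had positive fold changes, and each of the 4 type I keratins had a larger one than each of the 3 type II keratins. The authors gave a p-value to Krt8 alone, the type II chain of the simple epithelial pair. Its log2 fold change in the authors' deposited table was 1.99 ± 0.30 (SE, adjusted p = 4.56e-10, DESeq2), which is 3.97-fold on a mean of 4831 normalized counts. With libraries of 2 KO and 3 control kidneys, as the steps give, the deposited mean and ratio imply means of 8763 normalized counts in KO and 2210 in control kidneys. The call is 1 of 1 member with a p-value, in a table where 57.5% of 12828 tested genes were called, with 29.8% higher in KO and 27.8% lower. More cells of a type and more RNA per cell cannot be told apart in whole kidneys.

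The other 6 keratins carry the authors' status Outlier at 3 months, which comes with a fold change and no p-value. The sources used here do not give its rule, and 10.6% of the 14341 genes with a mean of at least 10 had it. Krt15 had the largest fold change of the 7 in the authors' deposited table, 10.26 ± 0.60 on the log2 scale, with implied means of 6248 normalized counts in KO and 5.09 in control kidneys. Krt19, its neighbour on chromosome 11 and a type I chain of ducts, had 8.01 ± 0.52 in the authors' deposited table, with implied means of 8586 in KO and 33.3 in control kidneys. By these implied means Krt15 was 1227-fold and Krt19 258-fold higher in KO kidneys, and neither value has a test.

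Krt18, the type I partner of Krt8, had 4.57 ± 0.53 in the authors' deposited table, with implied means of 11255 normalized counts in KO and 473 in control kidneys at 3 months. Krt23 had 3.10 ± 0.49 in the authors' deposited table (implied means of 353 in KO and 41.1 in control kidneys). Krt7, the type II chain of ducts, had 2.91 ± 0.36 (14042 in KO and 1866 in control), and Krt80 had 2.12 ± 0.40 (663 in KO and 152 in control) in the authors' deposited table. The median of the 7 log2 fold changes was 3.10, against 0.01 over the genes with a mean of at least 10. Krt15 lay at the 99.99th percentile of those genes by its fold change, Krt19 at the 99.9th and Krt8, the lowest of the 7, at the 90.1st.

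**Figure D1:**
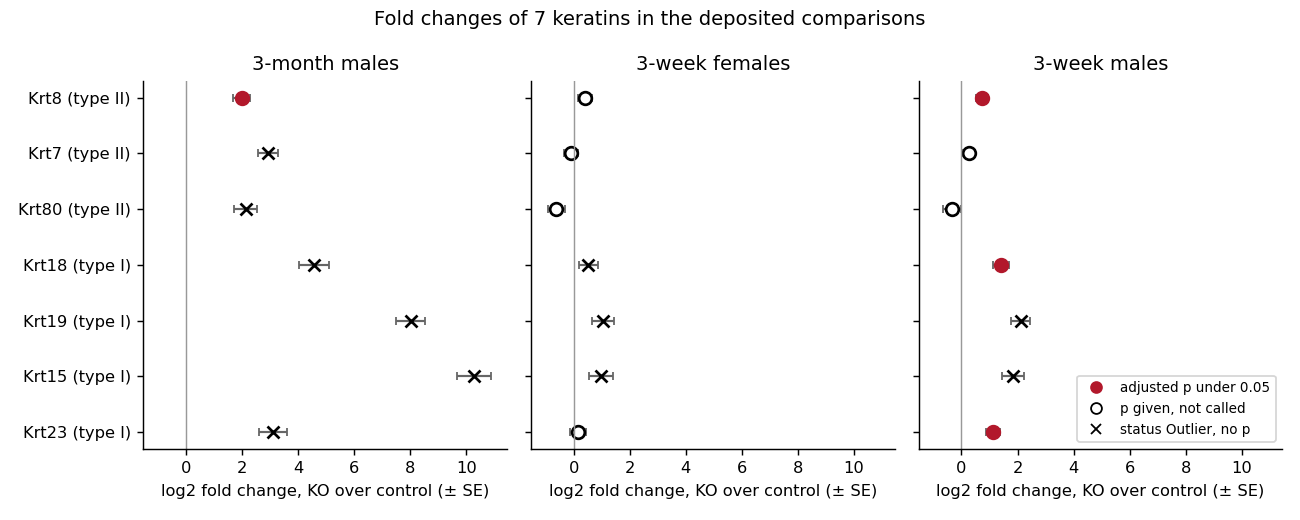
Log2 fold change, KO over control, of each keratin (x axis, bars ± SE) in the deposited comparisons of 3-month males, 3-week females and 3-week males. Filled circles were called at an adjusted p under 0.05, open circles have a p-value and were not called, and crosses have the status Outlier and no p-value. At 3 months values run from 1.99 for Krt8 to 10.26 for Krt15, in 3-week females from -0.63 to 1.03 and in 3-week males from -0.34 to 2.11.

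In 3-week females no keratin was called, and log2 fold changes lay between -0.63 for Krt80 and 1.03 for Krt19, where 3.51% of genes with a mean of at least 10 were over 1. Of the 7, 4 had a p-value and 3 had the status Outlier, in a table where 18.7% of 14146 tested genes were called, with 8.29% higher in KO and 10.4% lower. Krt8 had a log2 fold change of 0.41 ± 0.24 (adjusted p = 0.249, DESeq2) in the authors' deposited table, with implied means of 7340 normalized counts in KO and 5539 in control kidneys. Krt7 was at -0.10 ± 0.26, Krt23 at 0.15 ± 0.29 and Krt80 at -0.63 ± 0.31 in the authors' deposited table (adjusted p = 0.844, 0.774 and 0.145, DESeq2). The sign of Krt7 turned to positive with total-count scaling, at 0.05. The 3 without a p-value were all type I chains, Krt19 at 1.03 ± 0.39, Krt15 at 0.98 ± 0.42 and Krt18 at 0.51 ± 0.34 in the authors' deposited table. Krt19 had implied means of 2179 in KO and 1068 in control kidneys, and Krt15 of 1046 in KO and 530 in control kidneys.

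In 3-week males, 3 of the 5 keratins with a p-value rose in KO kidneys and none fell, where 17.3% of 14657 tested genes were called, with 8.81% higher in KO and 8.52% lower. Krt18 had a log2 fold change of 1.42 ± 0.29 (adjusted p = 1.68e-05, DESeq2) in the authors' deposited table, and implied means of 9055 normalized counts in KO and 3374 in control kidneys. Krt23 had 1.13 ± 0.24 (adjusted p = 5.06e-05, DESeq2) in the authors' deposited table, with 410 in KO and 187 in control kidneys. Krt8 had 0.73 ± 0.22 (adjusted p = 0.00729, DESeq2) in the authors' deposited table, with 13438 in KO and 8117 in control kidneys. Both chains of the simple epithelial pair thus rose, Krt18 by 2.68-fold and Krt8 by 1.66-fold.

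Krt7, with a mean of 13207 normalized counts in 3-week males, had 0.25 ± 0.23, and Krt80 had -0.34 ± 0.32 in the authors' deposited table (adjusted p = 0.544 and 0.561, DESeq2). The approximate 95% intervals of these log2 fold changes, from -0.20 to 0.71 and from -0.97 to 0.29, hold changes of up to 0.71 upwards in Krt7 and 0.97 downwards in Krt80. Krt19 at 2.11 ± 0.35 and Krt15 at 1.84 ± 0.38 in the authors' deposited table had the status Outlier and no p-value, as 4.01% of genes with a mean of at least 10 did. Their implied means were 5935 and 1867 normalized counts in KO and 1378 and 521 in control kidneys.

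**Figure D2:**
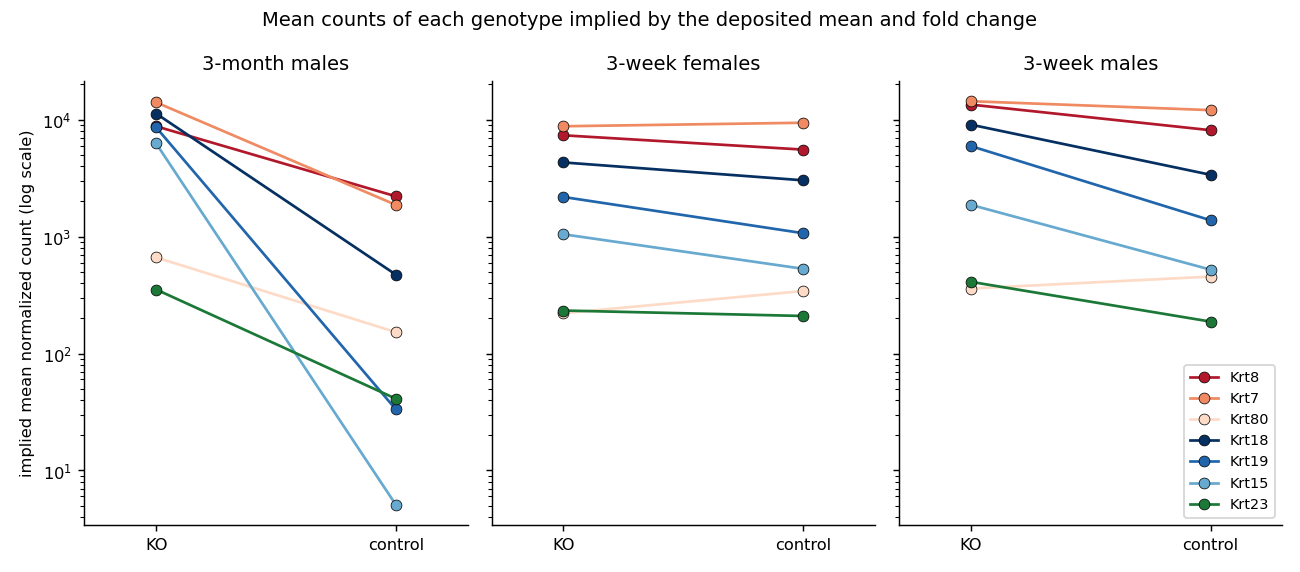
Mean normalized count of each keratin in KO and control kidneys (y axis, log scale), as implied by the deposited mean and fold change and the numbers of libraries read from the steps, with a line joining the genotypes. No error can be given per genotype. In 3-month males Krt15 and Krt19 were at 5.09 and 33.3 in control kidneys and at 6248 and 8586 in KO kidneys, and no line in the panels of 3-week kidneys is as steep.

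The difference between ages was tested for Krt8, the only member with a deposited p-value at both ages in males. Its fold change was larger at 3 months (1.99) than at 3 weeks (0.73), with a difference of 1.26 ± 0.37 on the log2 scale (SE, 95% interval from 0.53 to 1.99, adjusted p = 0.00494 over 12355 genes, 2-sided normal test of the deposited DESeq2 values), and 27.7% of these genes passed this test. The other 6 had differences between 1.97 for Krt23 and 8.42 for Krt15, and entered the test only when genes with the status Outlier or Low were added. Adjusted p then ran from 9.99e-29 for Krt15 to 0.00244 for Krt23 (same test), and 4512 of 17829 genes passed. Females minus males at 3 weeks, the 4 testable keratins had differences of -0.98 ± 0.38 for Krt23, -0.35 ± 0.35 for Krt7, -0.32 ± 0.32 for Krt8 and -0.29 ± 0.45 for Krt80. None passed (adjusted p = 1.00 each, same test), nor did any of 13737 genes (0.0%), of which 237 had an unadjusted p under 0.05. Krt23 was among these (unadjusted p = 0.00942), and 2 genes, neither a keratin listed here, passed when genes with the status Outlier were added. The 95% intervals of Krt8, from -0.95 to 0.31, Krt7, from -1.03 to 0.33, and Krt80, from -1.17 to 0.58, hold a difference of either sign, and that of Krt23 ran from -1.71 to -0.24. Of the 3 keratins without a deposited p-value in females, Krt18 had a difference of -0.92 (95% interval from -1.79 to -0.05), Krt19 of -1.08 (from -2.11 to -0.05) and Krt15 of -0.86 (from -1.98 to 0.26), each with an adjusted p of 1.00 by the same test when Outlier and Low genes were added. The tables were normalized and fitted separately by the authors, which limits both comparisons. With largest SEs of 1.10 in 3-month males and 0.44 in 3-week males, their fold changes appear shrunken by unlike amounts. The effect of this on the differences between ages was not tested.

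The standard errors of Krt15, Krt18 and Krt19 were large for their means. Among genes with a mean within 2-fold of its own, Krt15 had a larger SE than 98.7%, 99.9% and 99.8% of them in 3-month males, 3-week females and 3-week males. For Krt19 the shares were 96.8%, 99.7% and 99.6%, and for Krt18 96.5%, 99.0% and 98.2%. Krt8 and Krt7 lay lower, between 73.1% and 91.8%, and Krt23 in 3-week males, at 36.1%, was the one value of the 21 below 73.1%. The SE carries the spread between libraries of a genotype, but with shrunken fold changes it appears bounded as well. In 3-week females that of Krt15 was 0.42, the same to 2 digits as the largest of any gene. The tables do not show which libraries differed. The 10 urothelium markers described below had SEs from 0.43 for Trp63 to 0.86 for Upk2 at 3 months in the authors' deposited table. They were not ranked among genes of like mean.

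**Figure D3:**
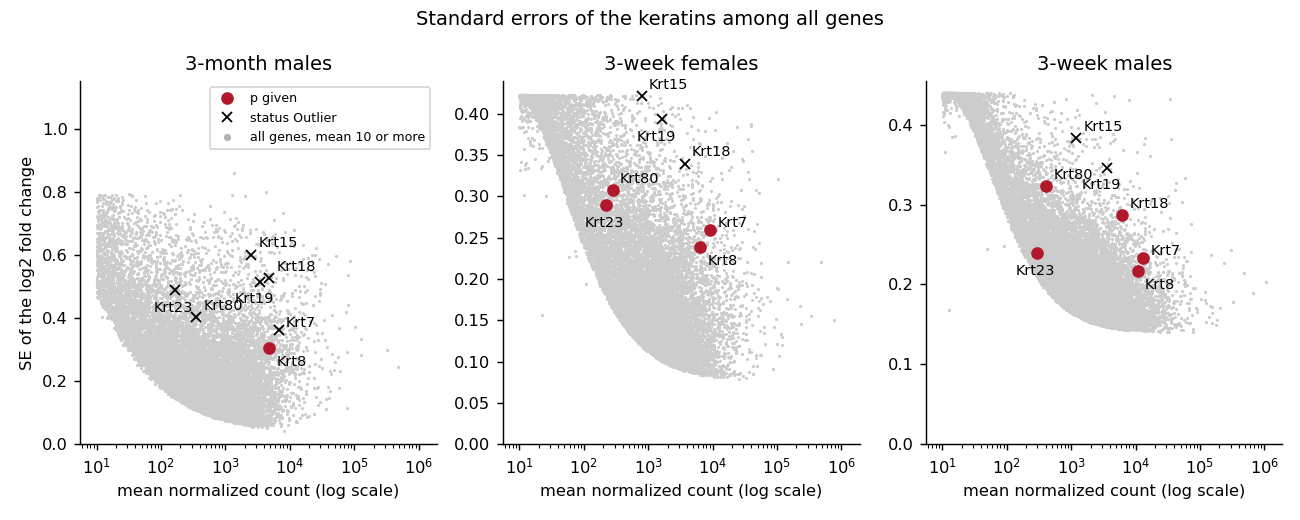
SE of the log2 fold change (y axis) against the mean normalized count (x axis, log scale) for all genes with a mean of at least 10 (grey) and for the 7 keratins (circles where a p-value was given, crosses for the status Outlier). The y axes differ between panels. Krt15, Krt18 and Krt19 sit near the upper edge of the cloud in each panel, with SEs of 0.60, 0.53 and 0.52 in 3-month males.

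Per kilobase of exon, the order of the 7 keratins at 3 months differed between the genotypes. The implied levels in KO kidneys were 7832 normalized counts per kb for Krt18, 4629 for Krt19, 4476 for Krt8, 3536 for Krt15, 1992 for Krt7, 225 for Krt23 and 104 for Krt80. Those in control kidneys were 1128 per kb for Krt8, 329 for Krt18, 265 for Krt7, 26.2 for Krt23, 23.8 for Krt80, 18.0 for Krt19 and 2.88 for Krt15. The deposited means over both genotypes at 3 months were 3330 normalized counts per kb for Krt18, 2467 for Krt8, 1862 for Krt19, 1416 for Krt15, 956 for Krt7, 106 for Krt23 and 55.8 for Krt80. At 3 weeks Krt8 was first by this mean in females (3289 per kb) and males (5504 per kb), followed by Krt18 at 2550 and 4325 per kb. Krt23 and Krt80 were the lowest of the 7 there, in KO and in control kidneys. By the mean over both genotypes Krt7 ranked 5 in 3-month males, 3 in 3-week females and 4 in 3-week males, and with the longest transcript in place of all exons 4, 3 and 3. Neither these means nor the implied levels have a deposited error, so neighbours in an order were not tested.

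Since filaments need both types, the summed levels per kb of the type II chains Krt7, Krt8 and Krt80 were set beside those of the type I chains Krt15, Krt18, Krt19 and Krt23. In 3-month males the implied type II sum was 6571 normalized counts per kb in KO and 1417 in control kidneys, and the type I sum was 16222 in KO and 376 in control kidneys. Type II over type I was therefore 0.405 in KO and 3.77 in control kidneys. In 3-week females it was 1.02 in KO and 1.35 in control kidneys, and in 3-week males 0.828 in KO and 1.69 in control kidneys. These sums leave out Krt5, the partner of Krt15. Over all annotated keratins, type II over type I was 0.465 in KO and 3.09 in control kidneys at 3 months. It was 0.985 and 1.32 in KO and control females, and 0.806 and 1.62 in KO and control males at 3 weeks. Sums with the longest transcript in place of all exons were not made. With the ratio read as KO over control, the type I chains were a larger share in KO than in control kidneys in each table, and with the ratio turned the values of the genotypes change places. Within the simple epithelial pair, Krt18 per kb was 1.75 times Krt8 in KO and 0.292 times in control kidneys at 3 months, 0.799 and 0.744 times in KO and control females at 3 weeks, and 0.918 and 0.566 times in KO and control males at 3 weeks. These ratios of implied means have no error, rest on fold changes that appear shrunken, and were not tested.

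**Figure D4:**
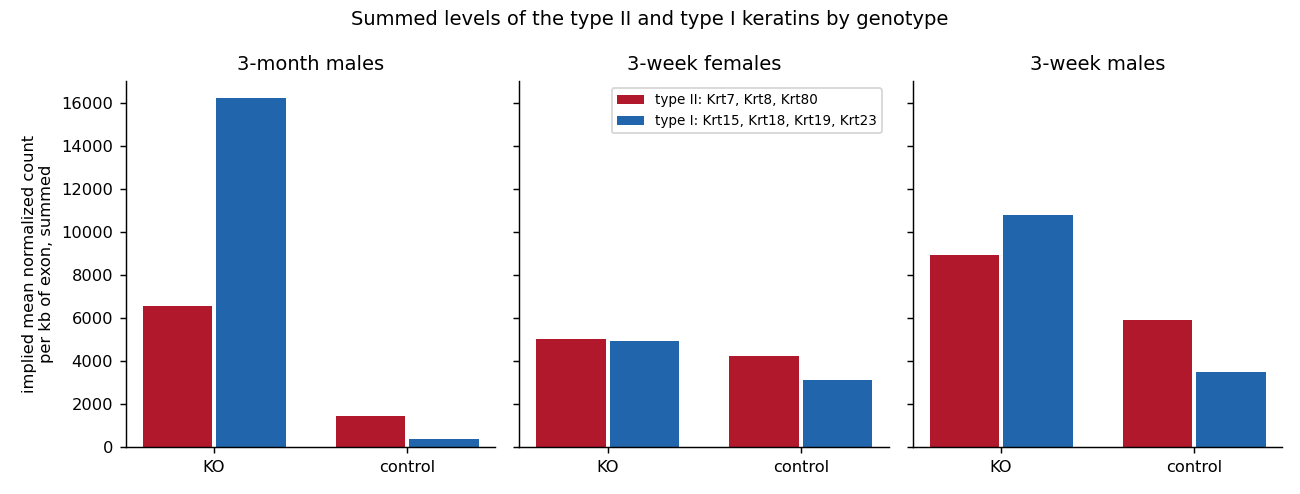
Implied mean normalized counts per kb of exon, summed over the type II keratins (red) and the type I keratins (blue), in KO and control kidneys of each comparison. Bars are single implied values without error. The type I bar of KO kidneys reaches 16222 in 3-month males, against 376 in control kidneys.

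Among the other keratins a group rose and, at 3 months, a pair fell. Of 45 other keratin genes, 6, 7 and 7 had a mean of at least 10 in 3-month males, 3-week females and 3-week males, and 18, 22 and 20 were listed at 0. At 3 months 4 of 6 tested rose and 2 fell. Krt5, the basal partner of Krt15, was at 10.02 ± 0.50, Krt14, another basal type I chain, at 8.37 ± 0.61, and Krt20, a keratin of urothelial surface cells and injured tubules, at 5.38 ± 0.47 in the authors' deposited table (adjusted p from 3.07e-85 to 7.33e-29, DESeq2). Krt10 and Krt222 fell by 0.78 and 1.86 on the log2 scale in the authors' deposited table. At 3 weeks Krt20 rose by 2.61 in females and 4.08 in males in the authors' deposited tables, Krt17 rose by 1.02 and 1.31, and Krt222 fell by 1.00 in females. Krt5 was an Outlier at 3 weeks, at 0.86 in females and 2.09 in males.

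Markers of the urothelium, the keratin-rich lining of the renal pelvis, had positive fold changes in both tables of males, as most of the keratins did. At 3 months all 10 had positive fold changes, 4 of 4 tested rose and the other 6 had the status Outlier. Their median log2 fold change was 7.56, and their summed implied means were 40720 normalized counts in KO and 220 in control kidneys. The authors' deposited table gives 6.87, 8.00, 7.13 and 8.39 without a p-value for the uroplakins Upk1a, Upk1b, Upk2 and Upk3a, the plaque proteins that define the urothelial surface. Krt5 and Krt20 belong to this list as well. In 3-week females the median was 0.39, with 2 of 2 tested (Krt20 and Trp63) higher, 8 Outliers and sums of 6355 in KO and 4852 in control kidneys. Psca at -0.19 and Gsdmc2 at -0.43, both Outliers, were negative there. In 3-week males the median was 1.66, with 2 of 3 tested higher, 7 Outliers and sums of 13901 in KO and 4404 in control kidneys. None of the 10 was at 0 in any table, and their part in the keratin values was not tested.

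Genes of the mesothelium, which covers the kidney and also carries keratins, were at a median of 5.57, 0.11 and 0.45 over 5 genes in 3-month males, 3-week females and 3-week males. Of these, 1 of 1, 0 of 2 and 0 of 2 tested rose. Their summed implied means were 14079 in KO and 406 in control kidneys at 3 months, 2545 and 2285 in KO and control females, and 5106 and 2738 in KO and control males at 3 weeks, and Upk1b is shared with the urothelium list. Skin keratinocyte markers, 3 of which are in the urothelium list, rose in 3 of 4 tested genes and fell in 1 at 3 months, and rose in 1 of 3 in both tables of 3-week kidneys. At 3 months Krt5, Krt14 and Trp63 rose and Krt10 fell. Krt1, Lor and Dsg3 had means of only 2.37, 3.51 and 1.26 there, with the status Low. The sums of the skin list were 4936 in KO and 163 in control kidneys at 3 months, 1556 and 919 in KO and control females, and 2823 and 889 in KO and control males. Krt5 alone made up 2836 of the 4936. The part of these lists in the keratin values was not tested.

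Collecting duct and thin limb genes, from segments known for Krt8, Krt18, Krt7 and Krt19, had lower medians than the 7 keratins. Of the principal cell and collecting duct list, 3 of 5 tested genes rose at 3 months, 1 of 4 in 3-week females and 4 of 9 in 3-week males, and none fell. Its median log2 fold changes were 0.99, 0.24 and 0.55, and its summed implied means were 39228 in KO and 33497 in control kidneys at 3 months, 88105 and 75587 in KO and control females, and 166003 and 115531 in KO and control males. Of the 3-month sums, Tfcp2l1 alone, an Outlier at -1.40, made up 6906 in KO and 18245 in control kidneys. Fxyd4, a regulator of the sodium pump, was at 2.58 ± 0.17 at 3 months (adjusted p = 1.64e-48, DESeq2) in the authors' deposited table. Of the thin limb list 7 of 8 tested genes rose and 1 fell at 3 months, 2 of 6 rose and 1 fell in females, and 2 of 9 rose and 1 fell in males at 3 weeks, with medians of 2.18, -0.03 and 0.25. Tspan8, a tetraspanin, was at 2.30 ± 0.14, 0.87 ± 0.16 and 0.97 ± 0.15 in the authors' deposited tables of 3-month males, 3-week females and 3-week males. The summed implied means of the thin limb list were 29184 in KO and 23295 in control kidneys, 55868 and 62303 in KO and control females, and 70577 and 75880 in KO and control males. Aqp1 alone made up 11497 in KO and 19616 in control kidneys of the 3-month sums. In 3-week kidneys it made up 31980 and 36121 in KO and control females, and 34241 and 44158 in KO and control males. The sums of the thin limb list thus follow Aqp1 more than its other genes. The 9 markers that define the kidney were all measured above 0, with medians of -0.71, -0.49 and -0.70.

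Tubular injury genes, with Krt20 among them, rose in 12 of 13 tested cases at 3 months, 13 of 17 in 3-week females and 12 of 15 in 3-week males, and none fell. Their medians were 3.44, 0.82 and 1.40 over 21 genes. Their summed implied means were 207174 in KO and 36405 in control kidneys at 3 months, 227007 and 139872 in KO and control females, and 371975 and 190338 in KO and control males at 3 weeks. Lcn2, the secreted injury marker lipocalin 2, was at 7.73 ± 0.25 at 3 months (adjusted p = 3.45e-206, DESeq2), Fgg at 2.23 ± 0.21 in 3-week females (6.26e-23) and Dcdc2a at 2.03 ± 0.18 in 3-week males (2.44e-27) in the authors' deposited tables. Several of these genes had been seen to rise in these tables when the list was made, and their part in the keratin values was not tested.

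**Figure D5:**
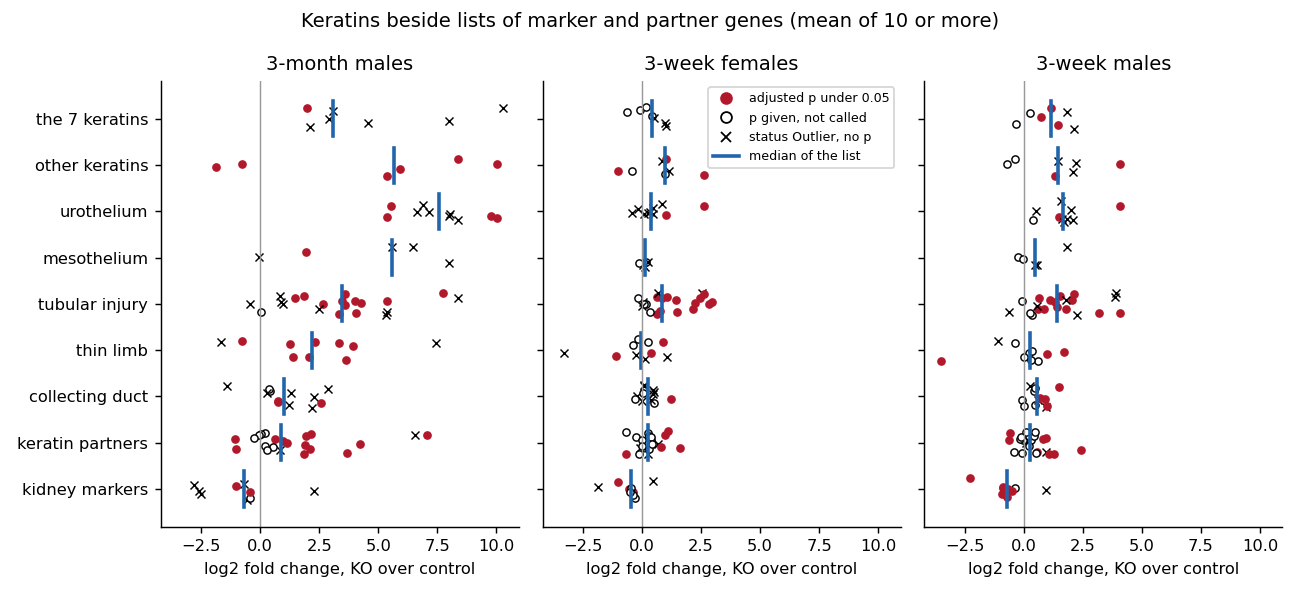
Log2 fold change, KO over control (x axis), of the 7 keratins and of the members of 8 lists with a mean of at least 10, 1 point per gene, with the median of each list as a vertical bar. Filled circles were called at an adjusted p under 0.05, open circles were tested and not called, and crosses have the status Outlier. At 3 months the keratin median of 3.10 lies below that of urothelium genes (7.56) and near that of tubular injury genes (3.44).

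Genes listed as partners of keratin filaments, most of them at junctions, moved in both directions. Of 22 genes, mostly of desmosomes, hemidesmosomes and plakins, 11 of 20 tested rose and 2 fell at 3 months, 4 of 19 rose and 1 fell in 3-week females, and 6 of 20 rose and 2 fell in 3-week males. The 22 also include Fbf1, Tchp, Pnn, Krtcap2 and Krtcap3, which are not genes of these structures. Of those, only Krtcap3 was called, and only at 3 months (1.87 ± 0.29). The list medians were 0.90, 0.25 and 0.27. Dsp, desmoplakin, which ties keratins to desmosomes, was at 2.13 ± 0.10 (adjusted p = 1.87e-103, DESeq2), and Ppl, periplakin, at 4.22 ± 0.30 (3.20e-42) at 3 months in the authors' deposited table. Itgb4, the hemidesmosome integrin, was at 3.68 ± 0.18, 0.98 ± 0.28 and 1.29 ± 0.26, and Col17a1, a hemidesmosome collagen of basal cells, at 7.07 ± 0.61, 1.61 ± 0.41 and 2.44 ± 0.38, in 3-month males, 3-week females and 3-week males in the authors' deposited tables. Pkp4, a plakophilin relative of cell junctions, fell in all 3, by 1.04, 0.67 and 0.57. Dst, dystonin, which links hemidesmosomes to keratins, fell by 1.07 at 3 months and 0.63 in 3-week males, and was an Outlier in females.

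The genes whose 3 log2 fold changes lay nearest to the mean of Krt8 and Krt18 (3.28, 0.46 and 1.08 in 3-month males, 3-week females and 3-week males) were Adra2a, Dpt, Rab15, Clec10a, Tlr4, Arhgdib, Apobec3 and Sdc1. The distance is Euclidean over the 3 comparisons, among 10853 genes with a mean of at least 100 in each. At 3 months Krt8 was at 1.99 and Krt18, an Outlier, at 4.57. These genes therefore lie near a point between the 2 keratins, and not near either of them. Dpt, Rab15 and Sdc1 had the status Outlier at 3 months as well. Adra2a, an adrenergic receptor, was nearest, at a distance of 0.12 with 3.39, 0.43 and 1.03 in the authors' deposited tables, and Sdc1, syndecan 1, was the eighth at 0.24. With fold changes divided by their SE, none of these 8 remained among the nearest 8.

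Libraries scaled to their total counts in place of the authors' size factors would add 0.49, 0.15 and 0.18 to every log2 fold change in 3-month males, 3-week females and 3-week males. No keratin changed its call under this scaling. Over all tested genes the share of calls that are higher in KO would move to 84.0%, 74.0% and 75.2%, against 51.7%, 44.2% and 50.8%.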

How the data were processed

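The labels list stranded libraries (TruSeq Stranded mRNA) of 15 kidneys, the authors deposited 3 tables of comparisons, and groups were taken from the titles. The submitters' processing notes name mm10, STAR, HOMER and DESeq2, without versions. Per the file headers, the deposited columns are a mean of normalized counts (a signal over the libraries), a log2 fold change, its standard error, a p-value, an adjusted p-value and a status. The 2-sided normal p of fold change over SE was within 1% of the deposited p-value in 100% of genes.

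A gene was called at an adjusted p under 0.05, and 27 symbols turned into dates were left out. Means per genotype were implied by the deposited mean, the fold change and the numbers of libraries read from whole-number steps of means under 2. Where fold changes are shrunken, these means lie closer together than the counts did, by an unknown amount. Differences between tables were tested with a 2-sided normal test, Benjamini-Hochberg adjusted over all genes with a p-value in both. Simulated data tried beforehand had normal errors of the deposited SE, so they could not check the effect of shrinkage or of separate normalization. The labels name separate littermates, and p-values rest on the spread among those libraries that entered each table.

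The members and lists were chosen with earlier results of these data known. All 7 keratins are named, up to 4 genes of a list with the smallest adjusted p in a table, and the 8 genes nearest to the Krt8 and Krt18 mean. The uroplakins, Krt5 at 3 weeks, Krt10, Krt222 and Dst were named after their values were seen. Alternatives were total-count scaling, centring, other filters, thresholds and a fold limit. Python 3.11.15, pandas 2.3.3 and scipy 1.17.1 were used. The interval level was 95%.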

Additional observations from a re-analysis of the deposited data

Results flagged for a closer look

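The fold change of Krt8 differed between the ages in males. It was larger at 3 months than at 3 weeks by 1.26 on the log2 scale (1.99 ± 0.30 at 3 months and 0.73 ± 0.22 at 3 weeks in the authors' deposited tables, SE), by a 2-sided normal test adjusted over all genes tested at both ages (adjusted p = 0.00494). No value per library was used here, so single libraries could not be checked. The fold changes appear shrunken by unlike amounts between the ages, and the effect of this on the difference was not tested.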

How the results depend on the processing

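The 3 calls in 3-week males and that of Krt8 at 3 months kept their direction and their side of the threshold under total-count scaling, centring, a mean of at least 50, a threshold of 0.01 and a fold limit of 0.5 on the log2 scale, and with unfiltered genes. With all genes unfiltered, 7 keratins were called higher at 3 months and 5 in 3-week males, and 7 differed between the ages, because the keratins with the status Outlier then entered the test. Of all genes, 4782 of 18244 were then called higher at 3 months and 1334 of 18578 in 3-week males, and 4512 of 17829 differed between the ages. The same 7, 5 and 7 followed when only Outlier genes were added, an alternative chosen after seeing the data, and 1 keratin, Krt19, was then called higher in 3-week females (adjusted p = 0.0483, against 0.0590 with all genes unfiltered). Over all genes the counts were then 4359 of 14341, 1400 of 15270 and 4406 of 14233, and 1255 of 14989 were called higher in 3-week females. Krt7 in 3-week females, -0.10 as deposited, was at 0.0498 with total-count scaling, also with the labelled numbers of libraries. With the threshold of 0.01, 1710 genes in 3-week females and 1681 in 3-week males were called, against 2651 and 2540. With the longest transcript in place of all exons, 17 of 21 places in the order per kb were the same. No paired analysis was possible because no group shares a number with another, and no replicate could be left out because no value per library was used here.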

Other observations

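Of 20 transcription factor genes of epithelia, 11 of 11 tested rose at 3 months, 5 of 17 in 3-week females and 10 of 19 in 3-week males, and none fell, with medians of 1.76, 0.30 and 0.57. Ehf, an ETS factor of epithelia, was at 2.18 ± 0.16 at 3 months (adjusted p = 6.79e-40, DESeq2) in the authors' deposited table, and Sox4 was at 2.85 ± 0.21, 0.95 ± 0.17 and 0.82 ± 0.16 in 3-month males, 3-week females and 3-week males. Of 10 AP-1 subunits, 7 of 7 tested rose at 3 months, 2 of 7 in females and 3 of 6 in males at 3 weeks. Atf3 was at 3.47 ± 0.39 at 3 months and 2.45 ± 0.24 in 3-week males in the authors' deposited tables.

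Of the other intermediate filament genes, 6 of 8, 2 of 9 and 2 of 10 tested were higher and none lower in 3-month males, 3-week females and 3-week males, and the medians of the log2 fold changes were 1.28, 0.24 and 0.40. Vim, vimentin of mesenchymal and dedifferentiated cells, was at 2.95 ± 0.22 at 3 months and 0.56 ± 0.21 in 3-week females in the authors' deposited tables (adjusted p = 3.52e-38 and 0.0464, DESeq2), and had the status Outlier in 3-week males at 1.03. Lmnb1, a nuclear lamin, was at 1.66 ± 0.26, 0.91 ± 0.24 and 0.78 ± 0.20 in 3-month males, 3-week females and 3-week males in the authors' deposited tables.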
